A study of Arabidopsis thaliana with 16 samples.

Results

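The root response of Arabidopsis thaliana to the loss of Fd-GOGAT1 was examined on the 8 root arrays of a series of 16 Affymetrix ATH1 arrays, an oligonucleotide array of the Arabidopsis genome. The root arrays were chosen by their titles: 4 of the glu1-2 mutant and 4 of the wild type Col-0. The other 8 arrays, of rosette leaves of the same genotypes, served only to show where roots differed from leaves. The glu1-2 plants are homozygous for 1 T-DNA insertion in Fd-GOGAT1 in the Col-0 background, and the line is described as a knock-down. Plantlets of both genotypes were 18 days old, grown in vitro on a sucrose-containing medium with ammonium nitrate under a 16 h photoperiod, and roots were taken 2 h after the light came on. A single insertion line was used, so that any other difference between that line and Col-0 cannot be told apart from the insertion. The question put to these arrays was which genes change in roots when a glutamate synthase that is abundant in green tissue is lost.

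Glutamate synthase, or GOGAT, works in a cycle with glutamine synthetase. Glutamine synthetase binds ammonium to glutamate to form glutamine, and GOGAT transfers the amide nitrogen to 2-oxoglutarate to give glutamate. In Arabidopsis, Fd-GOGAT1 (GLU1) and Fd-GOGAT2 (GLU2) draw electrons from ferredoxin, while NADH-GOGAT (GLT1) uses NADH. The enzyme of GLU1 is best known for recapturing the ammonium released by photorespiration in leaves, while GLU2 and GLT1 are known for their part in roots and other non-green tissue.

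The deposited values are array intensities, normalised over the arrays, and were compared on the log2 scale, so that a difference of 1 is a doubling. Differences are given throughout as glu1-2 minus wild type. All probe sets other than the array's controls entered the test, 22266 in number. Root arrays had median intensities of 106 to 110 and correlated with each other at 0.992 or higher over all probe sets. The first principal component held 38.75% of the variance and placed the 4 glu1-2 arrays on one side and the 4 wild type arrays on the other. The second, with 16.22%, spread the wild type arrays, from replicate 2 to replicate 3. Of the root values, 30.4% lay under an intensity of 32, where signal is not separated from background and a fold change is likely understated. Only 13216 probe sets carried the name of exactly 1 gene in the platform annotation. A further 595 were named by matching their leaf values to a supplementary list of genes induced in mutant leaves, so that a leaf rise of such a gene is built into its name, and 7963 stayed unnamed.

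In glu1-2 roots, 352 probe sets were higher (1.58% of those tested) and 280 were lower (1.26%), together 632 or 2.84% (limma moderated test, 4 arrays per genotype, q under 0.01). The changes were mostly small. Higher probe sets had quartiles of 0.44, 0.56 and 0.70 on the log2 scale, and lower ones of -0.72, -0.55 and -0.46, where the median over all probe sets was 0.01. An increase of at least 1 was seen for 26 and a decrease of at least 1 for 27. The largest falls were larger than the largest rises, with extremes of -2.61 and 1.71. For each of the 632, the 4 glu1-2 arrays lay on one side of the 4 wild type arrays, as they did for 11.3% of all probe sets. Among the higher probe sets, 191 had 1 named gene and 155 had none, and among the lower ones these were 163 and 112. Leaving out 1 array left 210 to 284 higher and 128 to 216 lower, in tests with fewer arrays. Removing glu1-2 replicate 2 took both to their lowest numbers, and removing glu1-2 replicate 3 left 220 higher. Dropping glu1-2 replicate 1, glu1-2 replicate 4 or wild type replicate 3 left 176, 167 or 169 lower.

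**Figure D1:**
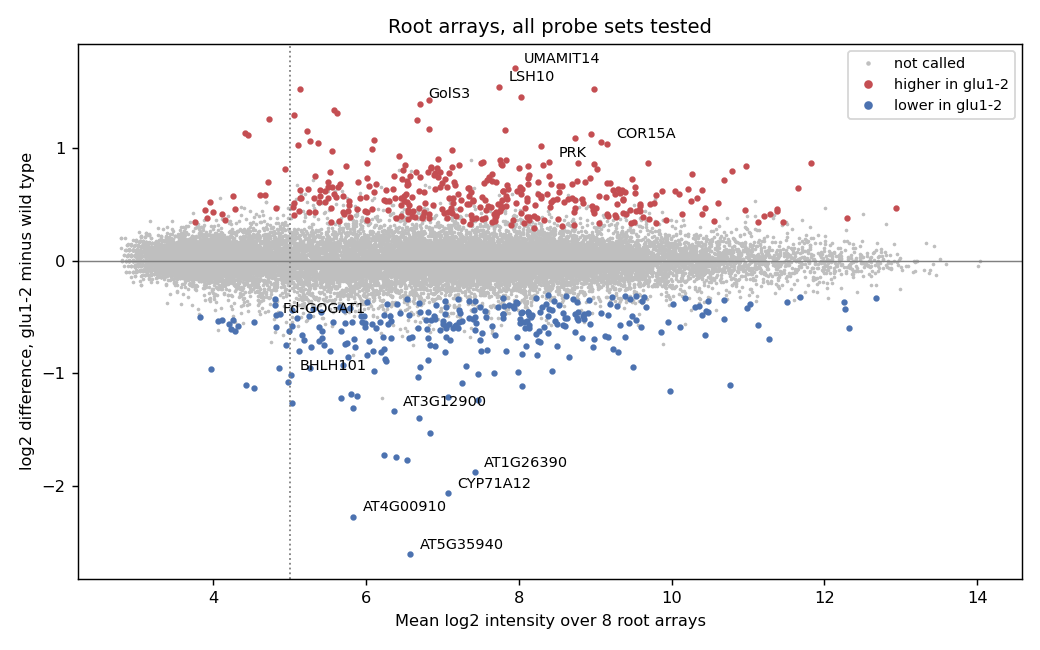
Log2 difference between glu1-2 and wild type roots (vertical axis) against the mean log2 intensity over the 8 root arrays (horizontal axis), 1 point per probe set, with the 352 higher ones in red and the 280 lower ones in blue. The dotted line marks an intensity of 32, and the falls reach -2.61 (AT5G35940) where the rises end at 1.71 (UMAMIT14).

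The annotation names no probe set for Fd-GOGAT1, so the probe set with the largest fall in leaves was taken for it, a choice that used no root value and makes its leaf fall no finding. In roots its intensities were 36, 33, 33 and 31 in the wild type and 21, 20, 23 and 30 in glu1-2. The groups did not overlap, but the wild type values themselves are at the edge of background. The log2 difference was -0.52 (standard error 0.11) and did not pass (q = 0.0156). The exact permutation test gave the smallest p that 4 against 4 arrays allow (0.0286, two-sided). Any 2 groups without overlap give this p, so that it adds nothing to the separation, which 11.3% of all probe sets show, GLT1 among them. Without glu1-2 replicate 4 the log2 difference was -0.64 and passed (q = 0.0016).

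The genes of the other 2 glutamate synthases were well above background in roots and did not pass there. GLU2 (AT2G41220) had intensities of 1107, 1169, 1168 and 1235 in the wild type and 1153, 1138, 1228 and 1197 in the mutant. These groups overlapped, with a log2 difference of 0.01 (standard error 0.06, q = 0.734). GLT1 (AT5G53460) lay at 2451 to 2524 in the wild type and 2229 to 2367 in glu1-2, without overlap but with a difference of only -0.11 (q = 0.285). Of 31 listed genes for nitrate and ammonium transport and nitrate response, 4 were measured, with NRT2.5 at background intensities of 12 to 14. Of the 4, 0 passed, where 2.47% of all genes did, a count too small to describe the list. NRT1.7 (AT1G69870), a nitrate transporter known for moving nitrate out of old leaves through the phloem, is outside that count because its probe set was named from the leaf list. It rose from intensities of 75, 78, 66 and 77 to 105, 101, 105 and 105, by 0.49 (standard error 0.07, q = 0.0011). The list for glutamate and nitrogen assimilation had 2 measured members of 30 listed, both asparaginase genes. Of these 1 passed, where 2.47% of all genes did. ASPGA1 had a difference of 0.09 (q = 0.447). ASPGB1 (AT3G16150), an asparaginase that releases ammonium from asparagine, fell by 0.48 on the log2 scale (q = 0.0063). Its intensities were 318, 312, 372 and 370 in the wild type and 226, 273, 224 and 260 in glu1-2. The call on ASPGB1 was lost on leaving out 7 of the 8 root arrays in turn, with q up to 0.0239 without glu1-2 replicate 3, and was kept without wild type replicate 2.

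UMAMIT14 (AT2G39510) showed the largest rise among the probe sets with 1 named gene. It belongs to a family of amino acid transporters and is known as an exporter of amino acids. Its intensity was 131, 140, 137 and 139 in the wild type and 383, 377, 561 and 492 in glu1-2. The wild type arrays were nearly alike and the mutant arrays spread more, with replicates 3 and 4 highest. The difference was 1.71 (standard error 0.12, q = 1.3e-05), a 3.27-fold rise. LSH10 (AT2G42610), of the LIGHT SENSITIVE HYPOCOTYLS family, had intensities of 138, 97, 105 and 176 in the wild type and 362, 313, 385 and 413 in the mutant. It rose by 1.55 (standard error 0.16, q = 0.0002). GolS3 (AT1G09350) encodes a galactinol synthase, which makes the galactosyl donor for raffinose-type sugars, and rose by 1.39 (standard error 0.14, q = 0.00016). Its intensities went from 73, 70, 52 and 64 to 149, 146, 224 and 166, replicate 3 being the highest of the mutant.

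The other 12 genes among the 15 largest rises are annotated by locus only. AT1G52820 had intensities of 268, 359, 248 and 333 in the wild type and 923, 780, 883 and 852 in glu1-2 (1.52, standard error 0.11, q = 2.3e-05). AT1G68040 was near background in wild type roots, at 19 to 23, and reached 57 to 61 in the mutant, so that its difference of 1.53 is likely understated. AT1G60590, AT1G10640 and AT5G62360 rose by 1.43, 1.12 and 1.25. The first pair is placed under carbohydrate metabolism in the study's gene ontology tables, and AT5G62360 is described there as an invertase or pectin methylesterase inhibitor family protein. AT1G80320, AT1G30515, AT5G13140, AT5G59305, AT2G25150, AT1G52790 and AT5G01740 rose by 1.07 to 1.34. For each of the 15, every glu1-2 array lay above every wild type array, as the naming rule required.

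The largest fall was that of AT5G35940. It is a member of the list for ER bodies and the PYK10 complex, which holds proteins of a root defence system against herbivores. Its intensities were 237, 232, 205 and 278 in wild type roots and 39, 45, 33 and 39 in glu1-2. All 4 mutant arrays were just above background level, with a difference of -2.61 (standard error 0.11, q = 4.6e-07, 6.1-fold). The other 6 measured members of that list did not pass. AT4G00910 went from intensities of 119, 138, 114 and 133 to 28, 23, 32 and 22, a difference of -2.28 (standard error 0.12, q = 1.3e-06). The mutant mean of AT4G00910 is under 32, so that its fall is likely understated.

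Further large falls were AT2G23270 with -1.73, AT1G13130 with -1.22, AT3G55790 with -1.13, AT4G28460 with -1.10, AT3G60420 with -1.08, AT2G36690 with -1.03 and AT3G61930 with -1.01. CCOAMT (AT1G67980), a caffeoyl-CoA methyltransferase of phenylpropanoid metabolism, fell by 1.21 on the log2 scale, from 75, 87, 98 and 101 to 44, 38, 29 and 47 (q = 0.00038). AT2G23270 and AT3G60420 had 1 wild type array well above the others, replicate 4, with 216 against 111 to 124 and with 72 against 38 to 42. Some of these calls were lost on leaving out single arrays. For AT3G60420 these were wild type replicate 3 and glu1-2 replicates 2, 3 and 4, with q up to 0.0134. For AT4G28460 they were the same arrays, with q up to 0.0156, and for AT2G36690 glu1-2 replicates 2 and 4, with q up to 0.0116.

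**Figure D2:**
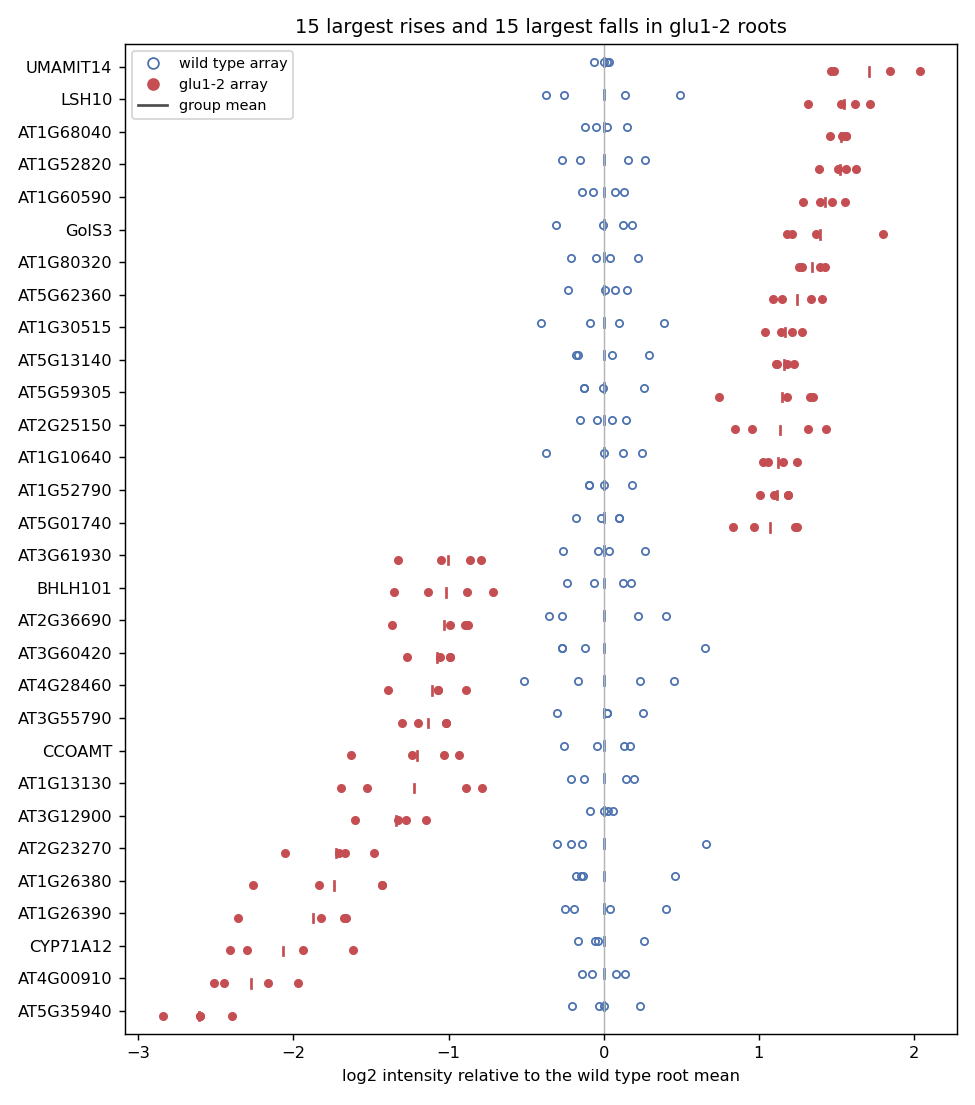
Log2 intensity of each root array relative to the wild type mean of the same gene (horizontal axis) for the 15 largest rises and the 15 largest falls, with wild type arrays as open blue circles, glu1-2 arrays as red circles and group means as short vertical lines. Rises run from 1.07 (AT5G01740) to 1.71 (UMAMIT14) and falls from -1.01 (AT3G61930) to -2.61 (AT5G35940).

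Photosynthesis-related genes of the nucleus encode proteins imported into plastids, which in roots are mostly not green. Of 9 measured genes for light harvesting and photosystem subunits, 6 rose and 0 fell, with a median difference of 0.46 (all 13019 genes with a probe set of their own: 175 higher and 147 lower, 2.47% called, median 0.01). Of 4 measured Calvin cycle genes, 3 rose, with a median of 0.65. Of 9 genes for tetrapyrrole and chlorophyll synthesis, 1 rose, with a median of 0.23, and of 7 for photorespiration, 2 rose, with a median of -0.01. In none of these lists did a member fall. The lists hold only the members that the annotation names, 9 of 56, 4 of 20, 9 of 26 and 7 of 25.

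PRK (AT1G32060), phosphoribulokinase, which remakes the acceptor of CO2, had intensities of 264, 271, 211 and 255 in wild type roots and 462, 447, 489 and 429 in glu1-2. It rose by 0.87 (standard error 0.09, q = 0.00013), 1.83-fold. SBPASE (AT3G55800), sedoheptulose-bisphosphatase of the same cycle, rose by 0.67, from 113, 119, 92 and 136 to 180, 182, 186 and 178 (q = 0.0017). The mutant arrays of both genes were closer together than the wild type arrays, of which replicate 3 was lowest. RCA (AT2G39730), Rubisco activase, which frees Rubisco from bound sugar phosphates, rose by 0.64, from 954, 1091, 877 and 900 to 1451, 1481, 1539 and 1445 (q = 0.00041). The remaining member, AT1G56190, had a difference of 0.18. Without glu1-2 replicate 2 the call on SBPASE was lost (q = 0.0102).

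Among the antenna proteins of photosystem II, LHCB4.3 (AT2G40100) rose by 0.63, from intensities of 70, 73, 62 and 59 to 119, 109, 94 and 89 (q = 0.0027). LHCB4.2 (AT3G08940) rose by 0.49, from 719, 637, 572 and 679 to 980, 925, 878 and 862 (q = 0.0031). LHCB4.1 (AT5G01530) differed by 0.38, also without overlap between the groups, and did not pass (q = 0.0186). PSB27 (AT1G03600), an assembly factor of photosystem II, rose by 0.59, and PSBY (AT1G67740), a small subunit of that photosystem, by 0.46. PSAE-1 (AT4G28750) and PSAN, subunits of photosystem I, rose by 0.51 and 0.39. PSBW had 0.22 and LPA19 had -0.13, and neither passed. Calls in this group depended on single arrays: removing glu1-2 replicate 2 left 2 of the 6, and removing wild type replicate 4 left 3.

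HPR (AT1G68010) encodes hydroxypyruvate reductase, which returns photorespiratory carbon to glycerate. It rose by 0.71 (standard error 0.09, q = 0.00066), from intensities of 365, 359, 284 and 361 to 564, 535, 609 and 517, wild type replicate 3 standing below the others. AT1G32470, placed with glycine metabolism in the study's gene ontology tables, rose by 0.59 (q = 0.0018) and lost its call without glu1-2 replicate 2 (q = 0.0102). PORB (AT4G27440), the protochlorophyllide oxidoreductase that carries out the light-dependent step of chlorophyll synthesis, rose by 0.54, from 598, 515, 517 and 562 to 754, 794, 831 and 810 (q = 0.00064). The other members of these 2 lists did not pass.

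Markers of shoot cells, which a root sample could carry, were read beside these genes. Of the 10 shoot cell type markers listed, 4 were measured, namely SPCH, MUTE and FAMA of the stomatal lineage and YAB3 of young leaves. None exceeded 36 on any root array, and their summed intensity was 88 to 97 in the wild type and 93 to 101 in glu1-2. In wild type leaves their own mean log2 intensities were only 5.13 (MUTE) to 7.48 (YAB3), where PRK had 12.72. A small share of leaf RNA would therefore not show in these markers, and carry-over of shoot tissue was not tested. Of 29 listed root hair genes, 6 were measured and 0 passed, where 2.47% of all genes did. Their median difference was 0.27, and 5 were above 0. Their summed intensity was 5369 to 6813 in the wild type and 5309 to 6455 in the mutant. AT3G01190 (-0.30), the brightest of them, weighs most in that sum. No gene of the endodermis list or of the list for other root cell types is named in the annotation. In whole roots, fewer cells of a type and less RNA per cell cannot be told apart, and the part of tissue composition in any of these results was not tested.

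**Figure D3:**
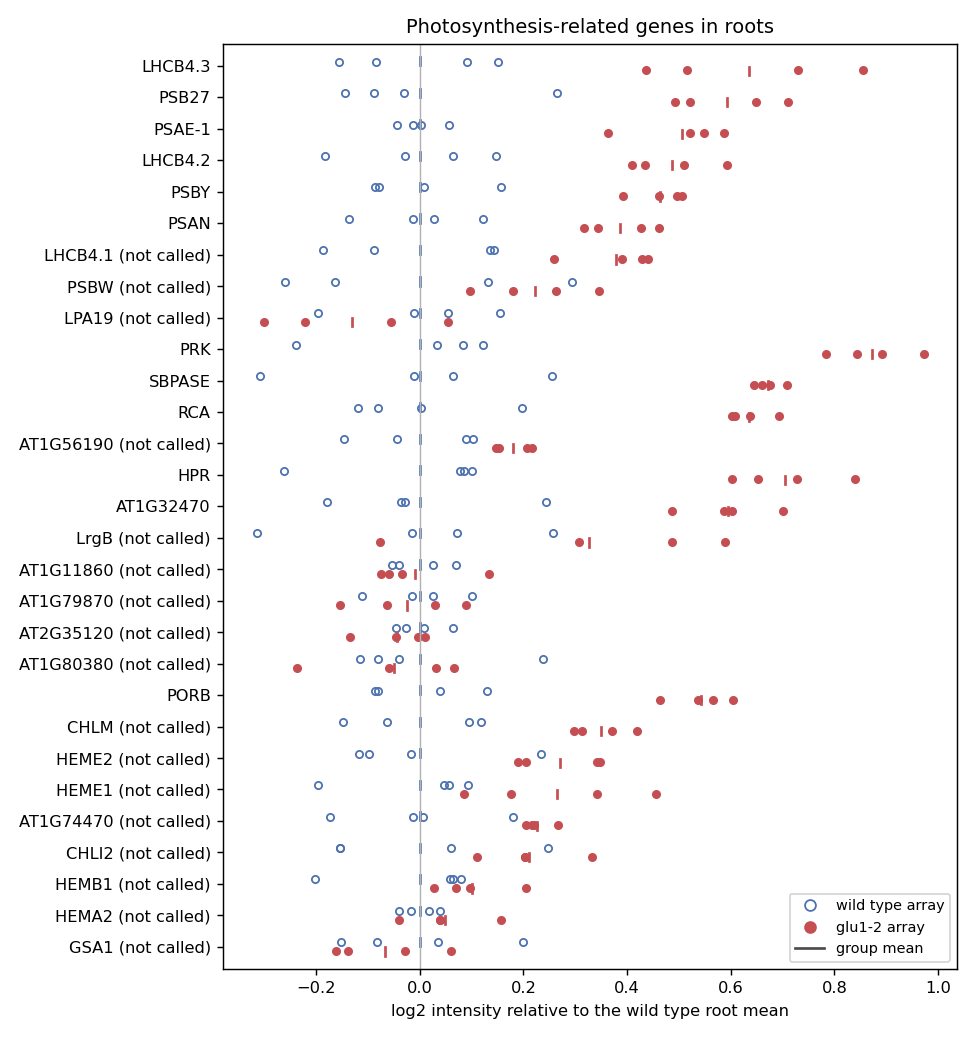
Log2 intensity of each root array relative to the wild type mean of the same gene (horizontal axis) for the measured genes of light harvesting and photosystems, Calvin cycle, photorespiration and tetrapyrrole synthesis, in this order from the top; open blue circles are wild type arrays, red circles glu1-2 arrays and short vertical lines group means. The called members rise by 0.39 (PSAN) to 0.87 (PRK), and LPA19 and most photorespiration genes lie around the wild type level.

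Of 16 listed genes for camalexin and immunity, 3 were measured and 2 were called, or 66.7% where 2.47% of all genes were. The called ones, AT1G26380 and AT1G26420, lie close together on chromosome 1 and fell. PDF1.2 did not pass (-0.11), but at intensities of 24 to 28 a fall of it could not be seen. AT1G26380, a FAD-binding domain protein similar to reticuline oxidase, had intensities of 139, 136, 140 and 211 in the wild type and 57, 43, 32 and 57 in glu1-2. Its difference was -1.74 (standard error 0.19, q = 0.00023), wild type replicate 4 being far above the others. CYP71A12 (AT2G30750), a cytochrome P450 that turns indole-3-acetaldoxime towards defence compounds, fell by 2.07, from 266, 269, 246 and 331 to 90, 56, 52 and 72 (standard error 0.16, q = 2.4e-05). It was named from the leaf list and therefore stands outside the count of P450 genes, of which 0 of 23 measured passed, where 2.47% of all genes did. Those 23 are a small part of the 251 listed, and 14 of them lay under an intensity of 32, so that the 0 does not describe the family. The study reports both induced and repressed P450 genes in these roots, with more induced than repressed. CYP81F2 and PAD3, given below, stand outside that count too.

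The fall extended to the neighbours of AT1G26380 on chromosome 1. AT1G26390 fell by 1.88 on the log2 scale (q = 9.1e-05), AT1G26410 by 0.95 (q = 0.00075) and AT1G26420 by 0.93 (q = 8.3e-05). AT1G26390 had intensities of 338, 287, 276 and 434 against 93, 104, 64 and 103. For each of these loci, no mutant array reached the lowest wild type array. AT1G26410, CYP81F2 and PAD3 were added after their values had been seen. The study lists other P450 genes of glucosinolate synthesis, CYP79B2, CYP79B3 and CYP83A1, as induced in these roots. Their values are not given here. CYP81F2 (AT5G57220), a P450 that modifies indole glucosinolates, had 279, 270, 265 and 355 in the wild type and 167, 144, 132 and 140 in glu1-2 (-0.999, q = 0.00018). PAD3 (AT3G26830), the P450 of the last step to camalexin, had 185, 174, 197 and 153 against 111, 107, 143 and 116 (-0.58, q = 0.0051). Near-identical genes in this cluster could share signal, since cross-hybridisation was not tested.

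The measured iron deficiency genes, 6 of 30 listed, were lower or not called. All 6 had a difference below 0, with a median of -0.43. Of them 2 passed, or 33.3% where 2.47% of all genes did. AT3G12900 had 123, 133, 136 and 131 in wild type roots and 43, 59, 52 and 54 in the mutant, 2 narrow groups far apart (-1.34, standard error 0.09, q = 1.3e-05). BHLH101 (AT5G04150), a transcription factor that acts in the response to iron shortage, had 52, 39, 50 and 44 against 25, 21, 28 and 18 (-1.02, standard error 0.13, q = 0.0007), the mutant values lying in the background range. AT1G47400 was variable in the wild type, with 158, 103, 202 and 143 against 113, 101, 102 and 96, and its groups overlapped (-0.52, q = 0.067). AT3G13610, BGLU42 and PYE had -0.34, -0.16 and -0.07 and did not pass.

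**Figure D4:**
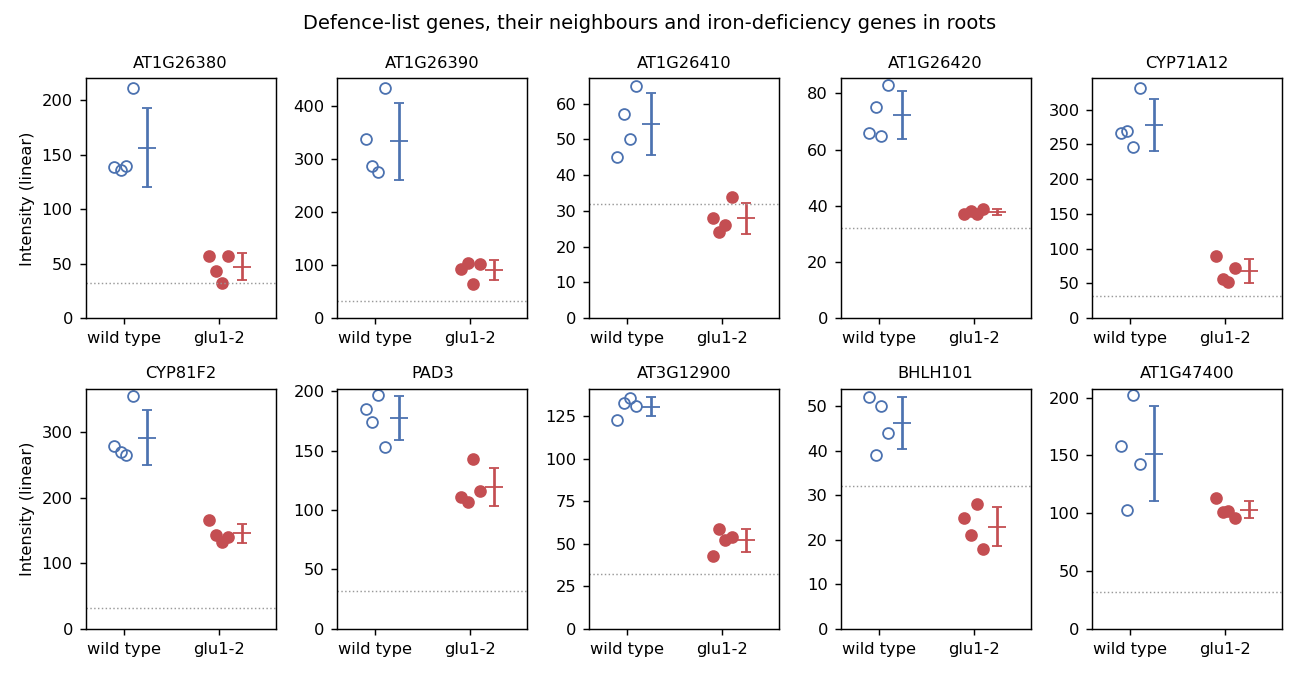
Linear intensity on each root array (vertical axis, from 0) for 7 genes of the camalexin and immunity list, its neighbours and related P450 genes, and for 3 iron deficiency genes, with wild type arrays as open blue circles and glu1-2 arrays as red circles; the bar beside each group is its mean with the SD of 4 arrays and the dotted line an intensity of 32. The groups are separate in each panel other than AT1G47400, and BHLH101 lies below 32 on each of the mutant arrays.

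Glycosyltransferases and glutathione transferases attach sugar or glutathione to small molecules. Of 51 measured UDP-glycosyltransferases, 3 fell and 0 rose, or 5.9% called where 2.47% of all genes were, with a median of -0.02. UGT73B4 (AT2G15490) had 213, 191, 208 and 226 in the wild type and 134, 148, 144 and 146 in glu1-2 (-0.55, q = 0.00059), and its neighbour UGT73B5 (AT2G15480) had 231, 215, 235 and 226 against 157, 143, 165 and 180 (-0.50, q = 0.0021). UGT72E1 (AT3G50740), known for glycosylating coniferyl aldehyde, fell by 0.49 on the log2 scale, from 1653, 1638, 1572 and 1500 to 1109, 1087, 1196 and 1154 (q = 0.0007). Of 14 glutathione transferases, 3 were called (21.4%), with a median of -0.00. GSTU18 rose by 0.76 (q = 0.00048) and GSTU20 by 0.55 (q = 0.0015), while GSTU22 (AT1G78340) fell by 0.54 on the log2 scale (q = 0.00035). GSTU22 had 1159, 1269, 1182 and 1183 in the wild type and 825, 839, 855 and 774 in the mutant, and GSTU18 had 95, 77, 87 and 107 against 161, 144, 153 and 160.

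Of 29 measured expansins and xyloglucan endotransglucosylases, which loosen or remodel the cell wall, 4 rose and 0 fell, or 13.8% called where 2.47% of all genes were, with a median of 0.06. XTH32 (AT2G36870) rose by 0.55, from 251, 214, 238 and 207 to 348, 337, 332 and 315 (q = 0.00092). XTH26 (0.70), EXLA2 (0.49) and EXPB3 (0.44) were less stable. Their calls were lost on leaving out 6, 4 and 7 of the 8 root arrays in turn, with q up to 0.0202, 0.0188 and 0.0276, so that 1 or 2 of the 4 remained called without any given array other than wild type replicate 1. XTH26 also lay near background in the wild type, at 18 to 25.

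Genes known to respond to cold and drought gave 2 rises among 4 measured of 22 listed, where 2.47% of all genes were called. Both were in the COR15 pair of neighbouring loci, which encodes chloroplast proteins that protect membranes on freezing. Whether the pair shares probe signal was not tested, so that the 2 calls may not be separate observations. COR15A (AT2G42540) rose by 1.04 (standard error 0.10, q = 0.00013), from 473, 333, 378 and 423 to 885, 783, 775 and 833. COR15B (AT2G42530) rose by 0.59 (q = 0.00068), from 40, 35, 43 and 38 to 62, 54, 59 and 60. The groups of both genes were well apart. STZ had 0.31 and COR47 had 0.08, without passing.

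Flavonoid synthesis gave 1 rise among 3 measured genes of 26 listed, or 33.3% called where 2.47% of all genes were. DFR (AT5G42800), dihydroflavonol reductase, rose by 0.63, from 532, 418, 448 and 556 to 746, 675, 845 and 749 (q = 0.0026), and lost its call without glu1-2 replicate 1, 3 or 4 or wild type replicate 3. Chalcone synthase (TT4, AT5G13930), the entry enzyme of the pathway, was named from the leaf list and rose by 0.51, from 1347, 1375, 1162 and 1324 to 1817, 1850, 1901 and 1856 (q = 0.00076). BCAT4 (AT3G19710), which starts the lengthening of methionine for aliphatic glucosinolates, rose by 0.35 (q = 0.0038) and lost its call on leaving out 5 of the 8 arrays, with q up to 0.014. AT5G47980, the measured member of the triterpene list, rose by 0.70 (q = 0.0031) and lost its call on leaving out 4, with q up to 0.0155.

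Of 7 measured bHLH factors, 2 were called (28.6%, where 2.47% of all genes were). AT1G22490 rose by 0.70 (q = 0.00019) and BHLH101 fell. Of 7 WRKY factors, 1 was called (14.3%). WRKY22 (AT4G01250), known from immune signalling, fell by 0.44 on the log2 scale, from 41, 39, 37 and 36 to 32, 26, 29 and 26 (q = 0.0058), and lost its call on leaving out 7 of the 8 arrays, with q up to 0.0254. Lists for auxin (7 measured), cytokinin (6), gibberellin (3) and heat shock proteins (2) had 0 members called, as had the single measured members of the lists for the clock, greening, sulfate, indole glucosinolates, lipid transfer proteins and NAC factors. The cytokinin members and 6 of the 7 auxin members were under an intensity of 32. Amino acid transporters, water channels, phosphate starvation genes, MYB and ERF factors and ribosomal proteins could not be counted. The platform annotation gave no listed member of these a probe set of its own. UMAMIT14 was named from the leaf list and stands outside such counts.

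Some of the called genes lay side by side. Among 13507 genes compared, 5418 pairs of neighbouring loci were both measured, and in 9 of them both genes were called. Over all probe sets 2.84% were called, and how many such pairs this share would give was not worked out. All 9 changed in the same direction, 5 up and 4 down. Besides the AT1G26380 and AT1G26410 pairs, UGT73B4 with UGT73B5 and COR15A with COR15B, these were AT1G52790 with AT1G52800 (1.12 and 0.63), AT1G78450 with AT1G78460 (1.04 and 0.72), AT2G34610 with AT2G34620 (0.66 and 0.53), PSBY with AT1G67750 (0.46 and 0.44) and AT5G60520 with AT5G60530 (-0.48 and -0.76). Neighbours that are copies of each other can share probe signal, and this was not tested.

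The root and leaf differences of the same genes were then set side by side. In leaves, 27.9% of probe sets passed, and 25.8% had a root difference that differed from the leaf difference (limma contrast over 16 arrays, q under 0.01). Among the 65 named genes this was 58, a number that the choice of most of them by their root difference raises. Of these, 18 passed in leaves in the opposite direction, 31 were not called in leaves and 6 passed in leaves in the same direction. Of these 6, UMAMIT14, LSH10, GolS3 and NRT1.7 were named from the list of leaf-induced genes, so that their leaf rise was built in, and AT5G62360 and BHLH101 were not. The other 3 of the 58 are the glutamate synthase genes, of which GLU2 and GLT1 were named from the leaf list too.

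Genes that rose in roots and fell in leaves were AT1G60590 (1.43 in roots and -1.31 in leaves, organ difference 2.74), AT1G10640 (1.12 and -0.97), GSTU18 (0.76 and -1.004), XTH32 (0.55 and -0.75), and the photosynthesis-related PRK (0.87 and -0.59), SBPASE (0.67 and -0.88), HPR (0.71 and -0.69), PORB (0.54 and -0.43), LHCB4.2 (0.49 and -0.45), PSBY (0.46 and -0.45) and PSB27 (0.59 and -0.33). PRK was far brighter in leaves, with a wild type mean log2 intensity of 12.72 there and of 7.96 in roots. LHCB4.3 rose in both organs, with 0.38 in leaves, and its organ difference did not pass (0.25, q = 0.1).

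Genes that fell in roots and rose in leaves were led by UGT73B4 (-0.55 in roots and 4.61 in leaves), UGT73B5 (-0.50 and 3.80) and GSTU22 (-0.54 and 3.69). In the wild type, GSTU22 had a mean log2 intensity of 10.23 in roots and of 5.18 in leaves. AT1G26380 (-1.74 and 1.13), AT1G26420 (-0.93 and 0.49), UGT72E1 (-0.49 and 0.85) and CYP71A12 (-2.07 and 0.70) showed the same opposition, where the leaf rise of CYP71A12 is part of how it was named. BHLH101 fell in both organs, by more in leaves (-2.57, organ difference 1.55, q = 1.3e-06). AT5G35940, AT4G00910 and AT3G12900 had leaf differences of 0.06, 0.08 and -0.00, with wild type leaf means of 3.72, 4.27 and 5.29 on the log2 scale, in or near the background range where a fall could not be seen.

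**Figure D5:**
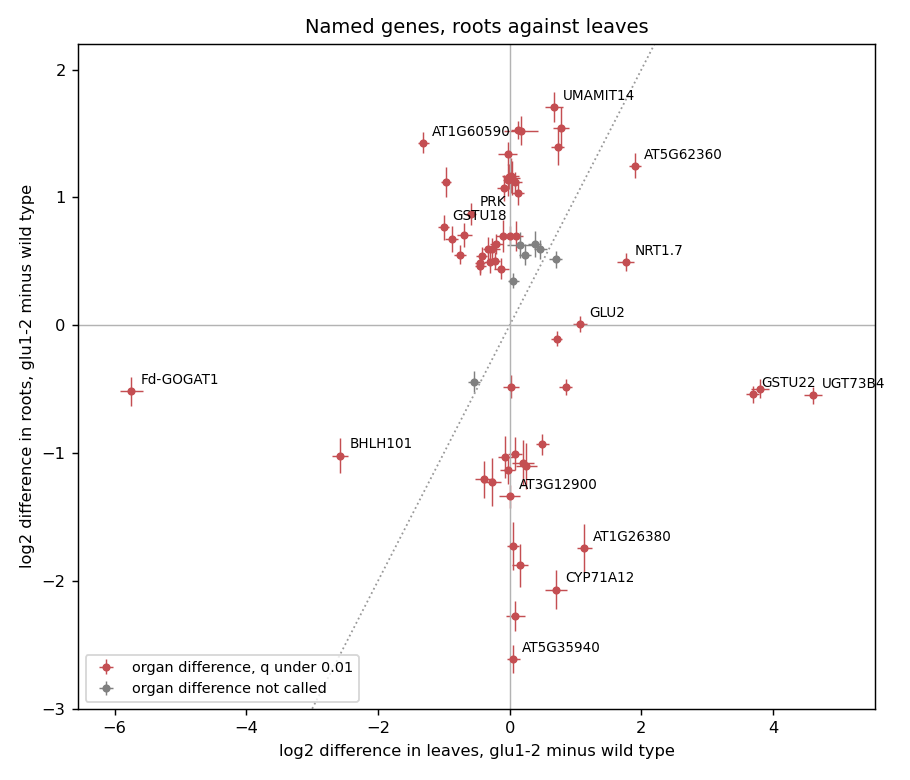
Log2 difference between glu1-2 and wild type in roots (vertical axis) against that in leaves (horizontal axis) for the 65 named genes, with standard errors as bars; red points have an organ difference with q under 0.01, grey points do not, and the dotted line marks equal differences. GSTU22 and UGT73B4 lie at 3.69 and 4.61 in leaves and below 0 in roots, while AT5G35940 lies at 0.06 in leaves and at -2.61 in roots; Fd-GOGAT1 is the probe set taken for that gene by its leaf fall.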

How the data were processed

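Total RNA of 4 replicates per genotype and organ, which the study describes as biological replicates, was hybridised to 1 array each. The deposited table holds linear intensity values that the authors had quantile-normalised and summarised per probe set with RMA; the values are rounded to whole numbers, the lowest being 6. No source used here gives the version of RMA. Log2 values of 22266 probe sets, without 13 controls, were compared between the 4 glu1-2 and 4 wild type root arrays with limma 3.58.1 (lmFit, eBayes) in R 4.3.3, all p-values being adjusted as q-values by Storey's method (smoother over lambda 0 to 0.95 in steps of 0.05, 3 degrees of freedom) with a threshold of 0.01. The organ difference was a contrast over all 16 arrays. The test was tried on simulated data. For lists, each gene was represented by its brightest root probe set. Genes named are the 15 largest rises and falls with 1 gene and separated groups, up to 5 called members of each list, and genes the study discusses for roots; exceptions are marked. Alternatives changed the adjustment, threshold, block, arrays fitted, filter, scaling, annotation and moderation, and left out each root array. Members and lists were chosen with earlier results of these data known. The number of arrays limits the precision. No sequence is shown, as none was given.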

Additional observations from a re-analysis of the deposited data

Results flagged for a closer look

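Among 130 groups of 4 arrays checked, 6 had an array far from the others, with a gap to the nearest array that exceeded Dixon's critical share of the group's range. Chance gives about 1 in 20 groups. HPR was low in wild type replicate 3 (0.934 of the range), and NRT1.7 was low in glu1-2 replicate 2 (1.0, the other 3 arrays having equal values). Wild type replicate 4 was high for AT1G26380 (0.934), AT3G60420 (0.843) and AT2G23270 (0.834), all of which fell in glu1-2, and wild type replicate 1 was high for GLT1 (0.847).

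The root difference differed from the leaf difference for 58 of the 65 named genes (limma contrast, q under 0.01), most of which were chosen by their root difference. Values here are the root difference minus the leaf difference on the log2 scale. Among genes that rose in roots they were 2.74 for AT1G60590, 2.09 for AT1G10640, 1.77 for GSTU18, 1.55 for SBPASE, 1.46 for PRK, 1.41 for AT1G68040, 1.4 for HPR, 1.37 for AT1G80320, 1.35 for AT1G52820 and 1.31 for XTH32. They were 1.17 for AT5G13140 and AT2G25150, 1.16 for AT5G01740, 1.15 for AT1G30515, 1.12 for AT5G59305, and 1.04 for UMAMIT14 and AT1G52790. Values from 0.7 to 0.97 were seen for PORB (0.97), LHCB4.2 (0.93), PSB27 (0.92), COR15A (0.92), PSBY (0.91), AT1G32470 (0.86), RCA (0.84), XTH26 (0.79), EXLA2 (0.79), LSH10 (0.77), PSAE-1 (0.73) and AT1G22490 (0.7). GolS3 had 0.66, AT5G47980 had 0.6 and EXPB3 had 0.57. The leaf rise was the larger one for AT5G62360 (-0.65) and NRT1.7 (-1.27).

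Among genes that fell in roots, the values were -5.16 for UGT73B4, -4.3 for UGT73B5, -4.23 for GSTU22, -2.87 for AT1G26380, -2.77 for CYP71A12, -2.67 for AT5G35940, -2.36 for AT4G00910 and -2.04 for AT1G26390. They were -1.78 for AT2G23270, -1.42 for AT1G26420, -1.36 for AT4G28460, -1.34 for AT3G12900 and UGT72E1, -1.28 for AT3G60420, -1.1 for AT3G55790 and -1.08 for AT3G61930. AT2G36690 had -0.97, AT1G13130 -0.95, CCOAMT -0.82 and ASPGB1 -0.5. BHLH101 fell more in leaves (1.55), as did the probe set taken for Fd-GOGAT1 (5.23), whose leaf fall chose it. GLU2 (-1.06) and GLT1 (-0.82) were not called in roots, and their leaf rise was built in because they were named from the list of leaf-induced genes, as for UMAMIT14, LSH10, GolS3, NRT1.7 and CYP71A12. Without single root arrays the organ difference was lost for ASPGB1 (6 arrays), for LSH10 (wild type replicates 2 and 3 and glu1-2 replicate 4) and for GolS3 (wild type replicate 3, q = 0.0104).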

How the results depend on the processing

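The main counts, 352 higher and 280 lower, became 793 and 707 at a q under 0.05, 26 and 27 with an absolute difference of at least 1, and 536 and 450 when the moderation was robust and followed the intensity. Among the probe sets with exactly 1 gene, of which fewer were tested, they were 162 and 126. Leaving out 1 root array gave 210 to 284 higher and 128 to 216 lower. Replicate numbers are shared between genotypes. Deviations of same-numbered root arrays correlated at 0.015, 0.060, -0.042 and 0.128, where differently numbered ones gave -0.166 to 0.129. Whether same-numbered arrays shared any handling was not tested. With the replicate block, 146 were higher and 103 lower, 2 of the 6 photosystem genes were called, and 22 of 64 named genes lost the call. The Fd-GOGAT1 probe set (-0.52) passed at a q under 0.05, without the dimmest probe sets (-0.52, q = 0.00739), with arrays shifted to the same median (-0.51, q = 0.00859) and under that moderation (-0.52, q = 0.00536), and ranged from -0.64 to -0.45 on leaving out 1 array. With an absolute difference of at least 1, 0 Calvin cycle and 0 photosystem genes were called; leaving out 1 array left 2 to 3 and 2 to 6. No called result changed direction; GLU2, not called, ranged from -0.0144 to 0.0383 on leaving out 1 array and turned below 0 without wild type replicate 1 or glu1-2 replicate 3. Of the 64 named genes, 4 lost the call with all 16 arrays in one fit and 16 on leaving out some array. The share of background-level intensities limits what can be seen of falls in dim genes.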

Other observations

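The genes in this paragraph were picked after their values had been seen and are given as values. SWEET11 (AT3G48740), a sucrose exporter, had intensities of 190, 251, 196 and 230 in the wild type and 370, 375, 367 and 345 in the mutant (0.76, limma q = 0.00039), and SUC1 (AT1G71880), a sucrose importer, had 472, 478, 476 and 428 against 665, 752, 702 and 628 (0.57, q = 0.00066). ALDH11A3 (AT2G24270), a glyceraldehyde-phosphate dehydrogenase of the cytosol, rose by 0.85 (q = 9e-05) and fell in leaves (-0.45). THIC (AT2G29630), which makes the pyrimidine part of thiamine, rose by 0.85 (q = 0.00018). ERD5 (AT3G30775), proline dehydrogenase, had 465, 424, 434 and 471 against 713, 667, 807 and 719 (0.69, q = 0.0002). FRD3 (AT3G08040), which loads citrate into the xylem for iron transport, had 352, 387, 365 and 344 against 250, 271, 270 and 265 (-0.45, q = 0.0011). LSU1 (AT3G49580), a gene of the response to sulfur shortage, had 506, 482, 463 and 447 against 342, 332, 296 and 369 (-0.51, q = 0.002). In each of these genes for which intensities are given, the 2 groups of arrays did not overlap, which held for each of the 632 called probe sets.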
